A study of Ogataea haglerorum with 3 samples.

Results

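Genes with long upstream intergenic regions were examined in Ogataea haglerorum, a methylotrophic budding yeast, from sequencing of polyadenylated RNA. A gene belonged to the set when the space between its 5′ edge and the adjacent annotated gene on that side, on whichever strand, measured 1000 to 8000 bases. Of 5345 annotated genes, 121 (2.26%) met this rule, which uses coordinates and no measured level. They were set against 5206 genes whose upstream gap was under 1000 bases. A further 9 genes had a gap over 8000 bases and 9 had no neighbour on the upstream side, and both kinds stood outside the comparison.

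The study supplied 1 group of 3 libraries, numbered 1, 4 and 5, and no second condition. All came from haploid cells of Phaff 81-453.3, the name the labels give under genotype, taken in log phase at an OD600 of 0.8 to 1.2 in YPD, a rich glucose medium, at 30 °C after an overnight culture of 16 h. Whether each library came from its own culture is not stated, so their spread may be technical. Libraries held 34047362, 44734719 and 34526996 counts over genes, so that 3 counts, the level a count of 0 allows, are 0.0881, 0.0671 and 0.0869 CPM (each count divided by its library's total and scaled). Levels are in TPM (corrected for gene length and scaled to a fixed total per library), and fold differences between gene sets are on the log2(TPM + 1) scale, which understates the difference of low genes. Genes are not replicates of a condition, so gene sets are described by medians and counts, and SD values are over the 3 libraries.

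The region upstream of a gene holds its promoter, where transcription factors bind and transcription starts. Yeast genomes are compact, and most spaces between genes are short. Genes that point away from each other (divergent genes) share one space for both promoters, whereas in tandem genes the space runs from the 3′ end of one gene to the 5′ end of the next. In Saccharomyces cerevisiae, FLO11, which encodes a cell surface adhesion protein, is known for a long promoter that integrates many signals. Neither the deposited files nor the RefSeq table of the species pairs gene IDs with names, so members are given by ID and position and no role can be stated for them.

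The set was made up mainly of divergent genes. The upstream neighbour lay on the other strand for 82 of the 121 members (67.8%) and for 55.1% of shorter-gap genes. Those 82 genes formed 41 pairs, each sharing 1 gap, and the other 39 members stood in tandem with their neighbour. The 121 members thus had 80 distinct upstream gaps between them. Upstream gaps ran from 1010 to 4872 bases with a median of 1340 bases among members, against a median of 147 bases among shorter-gap genes. Gaps under 1500 bases accounted for 77 members, gaps from 1500 to under 2000 bases for 25, from 2000 to under 3000 bases for 16 and from 3000 bases up for 3.

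Members also had more room on their other side. The median downstream gap was 157 bases for members and 72 bases for shorter-gap genes. A downstream gap of at least 1000 bases was found for 9 members (7.44%) and for 1.15% of shorter-gap genes. Gene lengths differed little, with medians of 1257 bases for members and 1194 bases for shorter-gap genes. Members ranged from 168 to 5637 bases long.

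Most of the gaps also lay between consecutive genes in another assembly of the species. In ASM1920728v1, whose RefSeq table lists protein-coding genes only, the genes on both sides of the gap were consecutive for 106 of 121 members (87.6%), and for 98.8% of shorter-gap genes. For 6 members the flanking genes lay in different runs of genes there. For 2 members, the divergent pair KL911_001959 and KL911_001949 on chromosome 6, 9 genes stood between the flanks in that assembly, and all 9 lacked a row in the deposited table. The remaining 7 members had IDs absent from that assembly (5.79% of members, against 0.672% of shorter-gap genes). Genes for RNAs that are not translated were not analysed here, so a gap may hold such genes.

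Next to the lower bound of the rule, genes just inside lay both below and above those just outside. KL911_001336 and gene_2805, with gaps of 1010 and 1012 bases, averaged 46.6 and 42.7 TPM. The divergent partner of gene_2805 across the same gap, gene_2806, averaged 250 TPM. KL911_000017 and KL911_000018, which share a gap of 997 bases and stayed outside, averaged 58.7 and 59.7 TPM. In each library these outside genes were above KL911_001336 and gene_2805 and below gene_2806. The longest gaps inside the upper bound were 4548 and 4872 bases, and the shortest outside was 9054 bases, between KL911_001942 at 339 TPM and KL911_004746 at 334 TPM.

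Members as a set had a somewhat higher median level than shorter-gap genes, with wider scatter. The median was 70.6, 69.1 and 68.6 TPM for members in libraries 1, 4 and 5, against 53.0, 51.2 and 52.4 TPM for shorter-gap genes. Members were thus the higher set in each library. On the log2 scale the difference was 0.41 ± 0.02 (SD, n = 3), or 1.32-fold. Of the members, 66 (54.5%) lay above the median of all genes, as did 49.9% of shorter-gap genes.

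Members held larger shares of both high and low genes, though away from the chromosome ends the shares of low genes were close. A mean over 200 TPM was found for 28 members (23.1%) and for 834 shorter-gap genes (16.0%). A mean under 5 TPM was found for 19 members (15.7%) and for 543 shorter-gap genes (10.4%). Over 50 kb from a chromosome end, 8.16% of members and 7.76% of shorter-gap genes averaged under 5 TPM, whereas 26.5% of members and 16.6% of shorter-gap genes averaged over 200 TPM. The interquartile range on the log2 scale was 3.11 for members and 2.42 for shorter-gap genes. All libraries held 10 or more counts for 112 of 121 members (92.6%) and for 96.9% of shorter-gap genes. The median difference depended on the cutoffs: it was -0.33 for the 44 genes with a gap of at least 1500 bases, 0.16 without the 7 members whose IDs are absent from the other assembly, and 0.20 against genes with gaps of 200 to under 1000 bases.

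**Figure D1:**
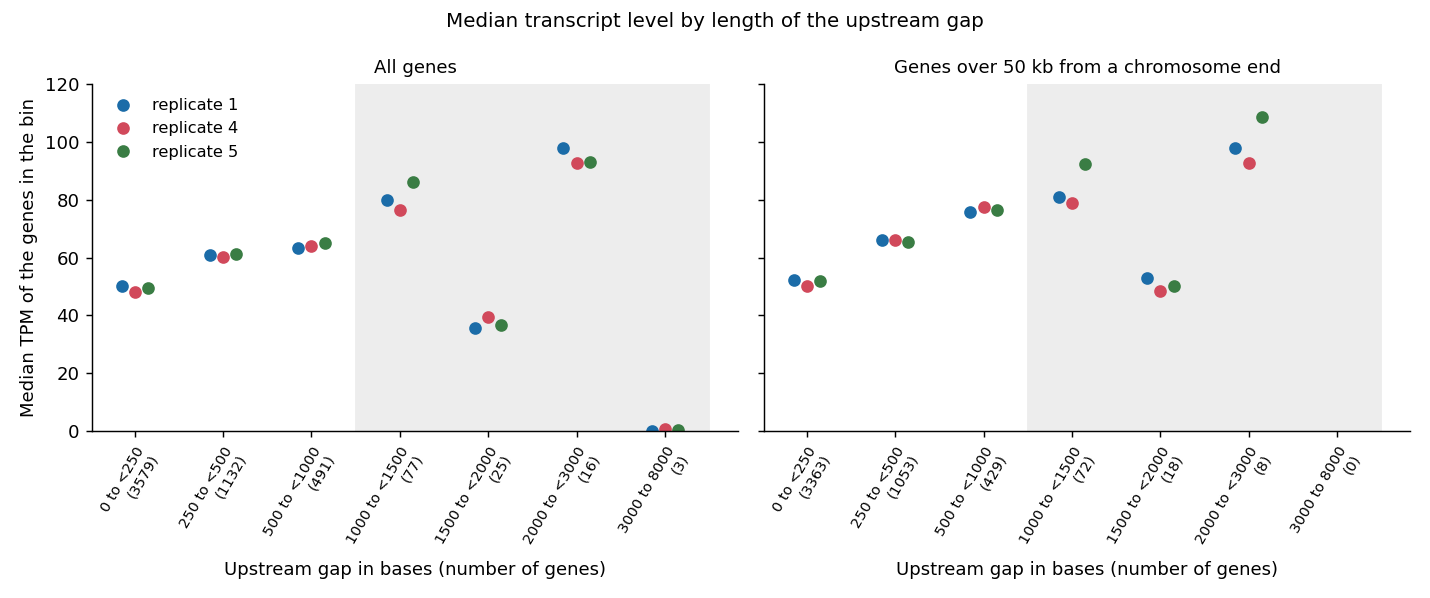
Median TPM of genes in bins of upstream gap length, 1 point per library (replicates 1, 4 and 5), for all genes (left panel) and genes over 50 kb from a chromosome end (right panel). The number of genes in each bin is in brackets, the grey band marks the bins of 1000 bases or more, and 4 genes that overlap their upstream neighbour are not drawn. Medians lie higher in each bin up to 1500 bases, and the bins beyond that hold 25 genes or fewer.

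Level stood higher with gap length up to 1500 bases, and not in order beyond. Away from the chromosome ends (over 50 kb), the 3363 genes with gaps under 250 bases had a median of 51.4 ± 1.18 TPM. The median was 65.8 ± 0.31 TPM for gaps from 250 to under 500 bases, 76.5 ± 0.91 TPM from 500 to under 1000 bases and 84.0 ± 7.23 TPM from 1000 to under 1500 bases (SD, n = 3). The last step was about as large as the SD over libraries, since the 72 genes in the last of these bins had medians of 81.0, 78.8 and 92.3 TPM. For every step, this SD comes from libraries of the same genes. It does not measure how far a bin median depends on which genes fall in the bin. For gaps from 1500 to under 2000 bases the median was 50.6 ± 2.30 TPM over 18 genes, and for gaps from 2000 to under 3000 bases 99.6 ± 7.98 TPM over 8 genes, too few to place in an order. As a description across genes, Spearman rho between gap and mean TPM was 0.137 over 4953 genes away from the ends, in libraries and annotation shared by all points. Within the 121 members, rho was -0.134.

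Larger shares of members than of shorter-gap genes lay near a space of over 8000 bases or a chromosome end. Each of the 7 chromosomes has 1 space of over 8000 bases, and 39 members (32.2%) lay within 50 kb of that space, against 6.63% of shorter-gap genes. Another 23 members (19.0%) lay within 50 kb of a chromosome end, as did 6.91% of shorter-gap genes. The remaining 59 members (48.8%) lay elsewhere, as did 86.5% of shorter-gap genes. By chromosome, members made up between 1.53% of genes on chromosome 4 and 4.59% on chromosome 1, which held 26 of them.

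**Figure D2:**
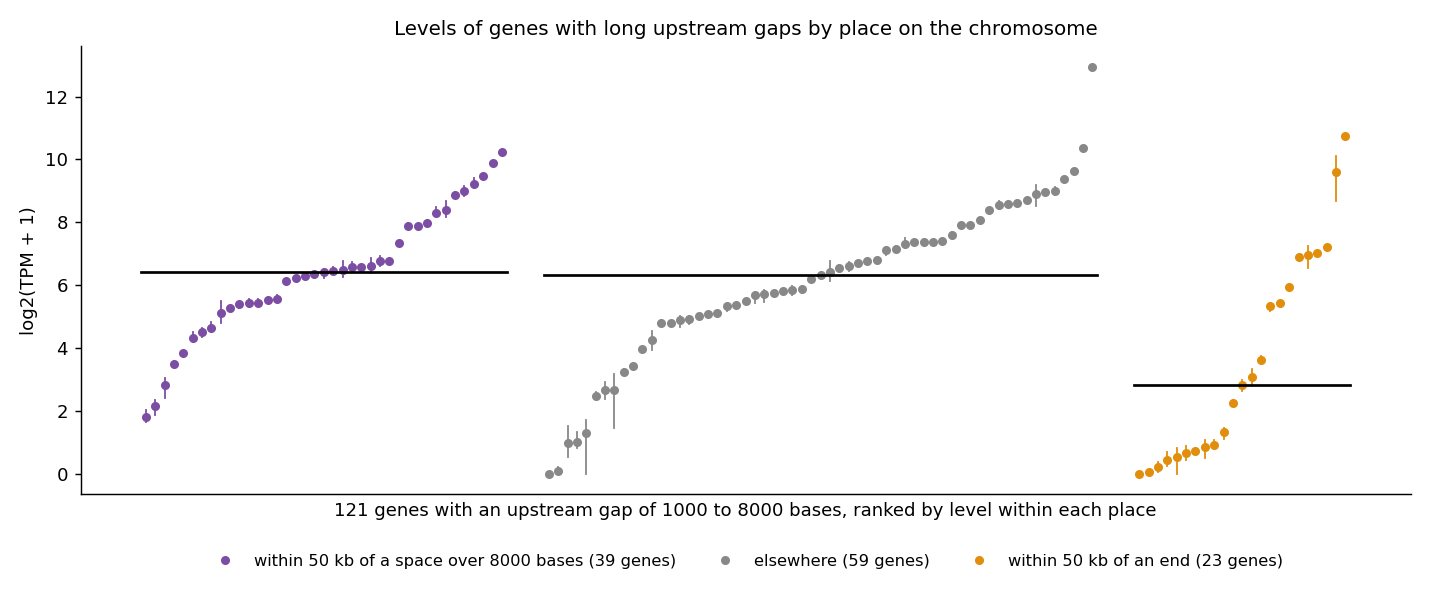
Level of each of the 121 genes with a long upstream gap, as log2(TPM + 1), ranked within 3 places on the chromosomes. Points are means of 3 libraries, vertical lines run from the lowest to the highest library, and black lines mark the median of each place. The 23 genes near chromosome ends span means of 0.011 to 1727 TPM, and their median lies below those of the other two places.

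Level went with place among members. Members near a space of over 8000 bases had a median of 82.7 ± 2.99 TPM, those elsewhere 78.5 ± 7.20 TPM and those near an end 5.81 ± 0.46 TPM (SD, n = 3). Shorter-gap genes had medians of 63.8 ± 0.41, 54.7 ± 1.05 and 7.96 ± 0.96 TPM in the same places. Under 5 TPM were 11 of the 23 members near an end (47.8%), and 46.4% of the shorter-gap genes near an end. Over 50 kb from an end, members exceeded shorter-gap genes by 0.54 ± 0.07 on the log2 scale. Near an end, the median of members stood below that of shorter-gap genes by the same measure. The difference was -0.64, -0.37 and -0.18 in libraries 1, 4 and 5, with a mean of -0.39 and an SD of 0.23. The upper part of the distribution near an end went the other way. The upper quartile of gene means was 89.9 TPM for members and 44.9 TPM for shorter-gap genes, and 30.4% and 23.3% lay above the median of all genes. Within 20 kb of an end lay 12 of the 23 members and 126 of the 360 shorter-gap genes, so the sets were not at like distance.

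The median level differed with the side on which a long gap lay. Over 50 kb from the ends, the 98 members had a median of 80.7 ± 4.72 TPM, with a long gap upstream. The 39 genes whose only long gap (1000 to 8000 bases) was downstream had a median of 34.3 ± 0.93 TPM. All 4846 shorter-gap genes in this region, these 39 included, had a median of 55.1 ± 0.91 TPM. The difference between members and genes with a long gap only downstream was 1.21 ± 0.11 on the log2 scale (SD, n = 3), with 1.23, 1.09 and 1.31 in libraries 1, 4 and 5. Over 200 TPM lay 26.5% of these members and 12.8% of the genes with a long gap only downstream. This contrast was not among the planned comparisons and was not repeated under other settings. Of the 98 members, 7 had IDs absent from the other assembly, against 0 of the 39 genes with a long gap only downstream.

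**Figure D3:**
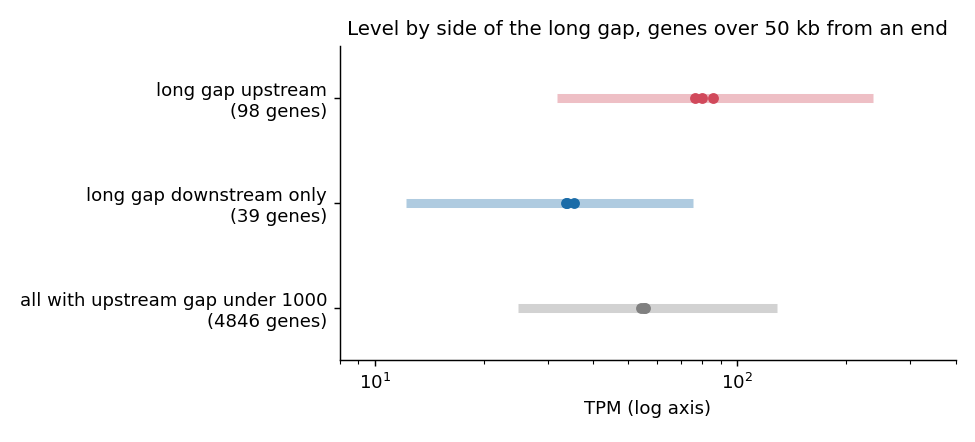
Level of genes over 50 kb from a chromosome end by the side of the long gap, in TPM on a log axis. Points are the medians of replicates 1, 4 and 5, and bars run from the lower to the upper quartile of gene means. The 98 genes with a long gap upstream have medians of 76.2 to 85.6 TPM, and the 39 with a long gap only downstream 33.7 to 35.4 TPM.

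Divergent members had a slightly lower median level than tandem members. The medians were 64.9, 63.8 and 65.3 TPM for divergent members and 76.1, 76.4 and 74.2 TPM for tandem members in libraries 1, 4 and 5. The difference was -0.22 ± 0.04 on the log2 scale (SD, n = 3), and -0.02 ± 0.01 for the same contrast among shorter-gap genes. Within 50 kb of an end lay 14.6% of divergent members and 28.2% of tandem members. Among members farther from the ends it came to -0.44 ± 0.06. Without correction for gene length (CPM) its sign turned, to 0.15, and divergent members were also the longer ones, with a median of 1415 bases against 1118 bases for tandem members. Low genes were 10 of the 82 divergent members (12.2% under 5 TPM) and 9 of the 39 tandem members (23.1%).

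Tandem members had a higher median level than the genes behind them, but case by case the excess over shorter-gap genes was small. The median of the 39 tandem members was 77.9 TPM, and that of their upstream neighbours 34.8 TPM, with the member higher in 23 of 39 cases (59.0%). Each such neighbour has the member's gap on its downstream side, so these genes overlap those with a long gap only downstream. Among tandem shorter-gap genes the gene was higher in 50.5% of cases, with medians of 52.6 TPM for the gene and 54.1 TPM for its upstream neighbour.

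The genes on either side of a divergent gap were often unequal, for long and shorter gaps alike. In 20 of 41 pairs (48.8%) they differed by more than 4-fold on the log2(TPM + 1) scale, as did 40.3% of the 1433 divergent pairs with shorter gaps. The median difference on that scale was 1.72 for long-gap pairs and 1.52 for shorter-gap pairs, without regard to sign. Both genes lay above the median of all genes in 16 of the long-gap pairs (39.0%) and in 28.8% of the shorter-gap pairs. As a description, Spearman rho between the 2 genes of a pair was 0.391 over the 41 long-gap pairs and 0.229 over the shorter-gap pairs. The points of each share libraries and depth.

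**Figure D4:**
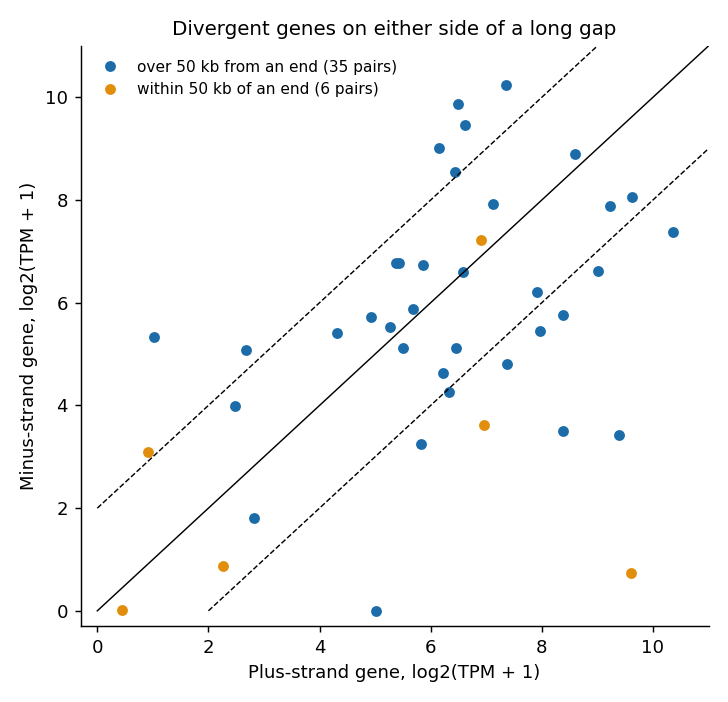
Levels of the 2 genes of each of the 41 divergent pairs with a gap of 1000 to 8000 bases, as log2(TPM + 1) of the mean of 3 libraries. The solid line marks equal levels and the dashed lines a 4-fold difference, beyond which 20 pairs lie. Colours separate pairs within 50 kb of a chromosome end from the rest.

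The pair with the largest difference lay near the right end of chromosome 1, across a gap of 2768 bases. KL911_002676, on the plus strand at 942704 to 943747, had 803, 1108 and 414 TPM in libraries 1, 4 and 5. Its partner KL911_002677, at 938424 to 939935, had 0.607, 0.690 and 0.713 TPM, from 30, 45 and 36 counts. The levels differed about 1156-fold, and the ranges were far apart in every library.

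The next pairs by size of difference lay away from the ends. KL911_002948 and KL911_002949 share a gap of 1111 bases on chromosome 1 and averaged 669 and 9.76 TPM. KL911_003889 and KL911_003888, across 1150 bases on chromosome 3, averaged 334 and 10.4 TPM. KL911_001129 averaged 39.3 TPM and its partner KL911_002304 1.04 TPM across 1856 bases on chromosome 2, but these flanks lay in different runs of genes in the other assembly. KL911_000149 had no count in any library, while KL911_000148, 1106 bases away on chromosome 3, averaged 31.5 TPM. The member without a count is a gene model of 213 bases. As one of the more equal pairs, KL911_001450 and KL911_001451 averaged 473 and 388 TPM across 1340 bases on chromosome 5.

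The highest members reached the upper end of the transcriptome. Over 1000 TPM were 4 members (3.31%) and 3.36% of shorter-gap genes. The highest was KL911_004747 (chromosome 4, minus strand, 1144383 to 1144550), with 7844, 7979 and 7948 TPM. Without correction for gene length it was not the highest. In TMM-scaled CPM it had 1257, 1302 and 1289, below for example KL911_004887 at 1859, 1906 and 2017. KL911_004747 is 168 bases long, and the tandem gene behind its gap of 1033 bases, KL911_005188, averaged 7360 TPM. The 2 lay in different runs of genes in the other assembly.

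The next 3 members by level had narrow ranges over the libraries. KL911_004887 (chromosome 4, minus strand, 7031 to 8188) had 1683, 1694 and 1805 TPM. It lies within 20 kb of the left end, and the gene behind its gap of 2042 bases averaged 3.08 TPM. KL911_000770, on chromosome 2 at 345425 to 346900, had 1373, 1247 and 1309 TPM. KL911_005093, on chromosome 1 at 373359 to 374585, had 1227, 1197 and 1197 TPM with a gap of 2083 bases. The partners of the last 2 across their divergent gaps averaged 166 and 163 TPM, above the median of all genes.

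The next 6 members by level averaged 598 to 938 TPM. KL911_005182, on chromosome 7 at 628165 to 630162, had 957, 919 and 937 TPM, and has long gaps on both sides, of 1684 bases upstream and 1922 bases downstream. KL911_003324 averaged 786 ± 22.5 TPM, KL911_004303 705 ± 10.1 TPM and gene_3625 598 ± 65.6 TPM (SD, n = 3). The other 2 of the 6, KL911_002676 and KL911_002948, belong to the most unequal pairs. Of these 10 highest members, 8 are divergent and 2 tandem.

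The longest upstream gaps belonged to low or moderate genes near the left end of chromosome 6. KL911_002291, at 32731 to 34443, had a gap of 4872 bases and 41.5, 43.8 and 41.4 TPM. KL911_002295, at 26247 to 26513, had a gap of 4548 bases and 0, 9 and 5 counts. KL911_002303, at 7395 to 9008, had a gap of 3886 bases and 3, 2 and 1 counts. The flanks of this gap lay in different runs of genes in the other assembly. KL911_002295 and KL911_002303 rest on too few counts for a level to be placed at this depth. The next longest gap, of 2768 bases, is the one between KL911_002676 and KL911_002677.

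Low members with enough counts to place were mostly near chromosome ends. Among members with at least 10 counts in each library, the 5 lowest averaged 0.587 to 1.04 TPM. They were KL911_004456 with 31, 28 and 49 counts, KL911_002677, KL911_002664 with 45, 69 and 20 counts, KL911_000564 with 37, 67 and 35 counts, and KL911_002304 with 52, 38 and 27 counts. All but KL911_002304 lie within 20 kb of an end. At least 1 library held no count for 5 members, and KL911_000149 was the only member without a count in any.

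The median spread between libraries was close in the 2 sets. Of the members, 97 had a mean of at least 10 CPM and 24 did not. The median coefficient of variation (CV, the SD as a percentage of the mean) of TMM-scaled CPM was 6.43% for members and 6.56% for the 4474 shorter-gap genes that passed. Counting error alone, as a root mean square over libraries, had a median of 1.55% for members and 1.83% for shorter-gap genes. The difference of -0.13 percentage points changed sign under several settings, to 0.39 without replicate 5 for example, so no difference was detectable.

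**Figure D5:**
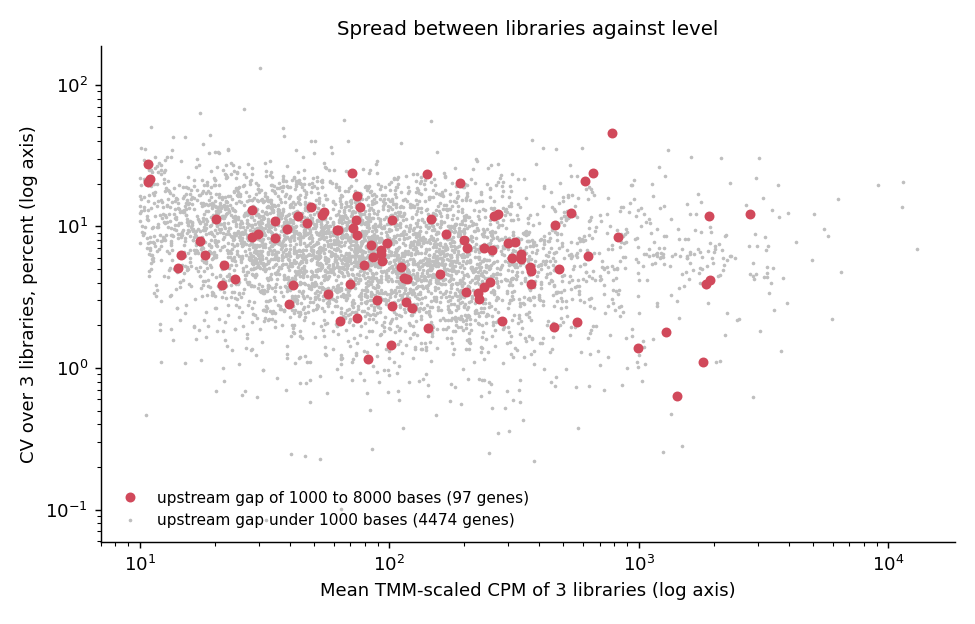
Coefficient of variation over 3 libraries against mean TMM-scaled CPM, both on log axes, for 97 genes with an upstream gap of 1000 to 8000 bases and 4474 genes with a gap under 1000 bases. The medians are 6.43% and 6.56%, and the member farthest up, at 45.3%, is KL911_002676.

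At like level neither set had the higher spread throughout. In the lowest of 4 bins of level, from 10 to 37.4 CPM, the median CV was 8.35% for 16 members and 8.77% for shorter-gap genes. In the second bin, up to 81.0 CPM, it was 9.59% for 21 members and 6.58% for shorter-gap genes. In the third, up to 187 CPM, it was 5.20% for 21 members and 5.84% for shorter-gap genes. In the highest bin it was 6.0% for 39 members and 5.56% for shorter-gap genes. Members were thus higher in 2 bins and lower in 2.

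A few members varied by more than counting error and at least 1.5-fold between the highest and lowest library. By chi-square with Benjamini-Hochberg adjustment over all 4578 genes tested, 7 of 97 members were called (7.22%), against a background of 3.8% of genes. All 7 are among the 69 divergent members tested, which make up 71.1% of tested members, and 3.62% of divergent shorter-gap genes were called. Within 50 kb of an end 3 of 11 members were called, against 10 of 174 shorter-gap genes (5.75%). Over 50 kb from an end 4 of 86 members were called (4.65%), a share near the 3.65% of shorter-gap genes there. Without a minimum ratio 81 members (83.5%) exceeded counting error, beside 81.5% of all tested genes. Leaving out replicate 1 left 5 members called beside 2.98% of genes. Leaving out replicate 4 left 3 members called beside 1.45% of genes. Leaving out replicate 5 left 0 called beside 0.808% of genes, also with unadjusted p-values under 0.05, and the highest ratio was then 1.40; 73 members had an unadjusted p under 0.05 at any ratio. A highest-to-lowest ratio over 2 of the libraries cannot exceed that over all 3. A lower count with a library left out was thus largely set by the rule.

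Only KL911_002676 also differed at least 2-fold, beside 0.612% of all tested genes. It had 800, 1124 and 417 CPM in libraries 1, 4 and 5, a ratio of 2.69, and its chi-square p-value was too small to be represented. Library 4 was its highest and library 5 its lowest, and the ratio was 1.92 without library 4 and 1.40 without library 5. Its partner KL911_002677 was under the minimum of 10 CPM and was not tested.

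The other called members had ratios of 1.52 to 1.65. KL911_002996, on chromosome 7 at 26344 to 26940 with a gap of 2527 bases, had 73.8, 86.9 and 53.0 CPM (chi-square, adjusted p = 1.12e-66). KL911_000563, on chromosome 2 at 14717 to 16246, had 10.7, 13.6 and 8.85 CPM (adjusted p = 5.96e-09). Both are near an end, and in both, as in KL911_002676, library 4 was highest and library 5 lowest.

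Of the 4 called members away from the ends, 3 had their highest level in library 5. KL911_001450, on chromosome 5 at 1098416 to 1099849, had 502, 647 and 814 CPM, with a p-value too small to be represented. KL911_000923, on chromosome 2 at 555544 to 557262, had 131, 115 and 179 CPM (chi-square, adjusted p = 9.32e-127). KL911_005389, on chromosome 1 at 393886 to 394215 with a gap of 2412 bases, had 9.66, 8.56 and 14.1 CPM (adjusted p = 1.90e-13). The fourth, KL911_003744 on chromosome 6, had 13.0, 11.1 and 8.53 CPM and was lowest in library 5 (adjusted p = 3.47e-07).

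Over all tested members, library 5 was the highest for 47 of 97 (48.5%) and library 1 the lowest for 46 (47.4%). Among shorter-gap genes library 5 was the highest for 39.0% and library 1 the lowest for 30.6%. Scaled by library totals alone, library 5 was the highest for 48.5% of members and 39.8% of shorter-gap genes, and library 1 the lowest for 45.4% of members and 26.0% of shorter-gap genes. Paired members share a gap.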

How the data were processed

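Counts per gene were deposited for 3 libraries. Per the file headers, the authors made these counts with featureCounts 2.0.1 on features typed gene in an annotation of their own, using strand setting 1 and the paired-end flag and no flag for multi-mapping reads; per the labels, reads were single-end. The submitters' processing notes also name HTSeq, deepTools, SAMtools and HISAT2 2.2.1. The build is not given in the sources used here; coordinates are those of the deposited files. The TPM values are the authors' own, as deposited. Reads of near-identical genes are uncertain.

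Gaps run to the adjacent gene in start order, and an overlap counts as a shorter gap. Distance from an end was taken from the gene edge farther from it; the last annotated gene stands for the right end. RefSeq locus tags were found for 5301 gene IDs and not for 44, with 0 names, so the planned gene lists could not be used. The RefSeq table served only for which genes neighbour each other.

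Spread between libraries was computed from counts after TMM scaling (edgeR 4.0.16 in R 4.3.3), for genes averaging 10 CPM or more. A gene varied when a chi-square of its counts passed 0.05 after adjustment and its highest library was 1.5 times its lowest or more. The test compares libraries with counting error only, PCR reads are not independent molecules, and 1 group allows no contrast between conditions. Median-of-ratios scaling (DESeq2 1.42.0) was an alternative. Scripts were tested on simulated data. Other software was matplotlib 3.10.9, pandas 2.3.3, scipy 1.17.1, numpy 2.4.6 and Python 3.11.15.

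Named members were the 10 highest, the 5 longest gaps, those called at a ratio of at least 2 and the next 5 called, the 5 lowest with 10 counts in each library, genes at the bounds, and the 5 most unequal pairs. KL911_003744, gene_2806, the pair of KL911_001450 and the pair with 9 genes between its flanks were named after their values were seen. The members and rules were chosen with earlier results of these data known.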

Additional observations from a re-analysis of the deposited data

How the results depend on the processing

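The level difference between long and shorter upstream gaps (0.41) was above 0 under 17 of 18 settings and reversed to -0.33 with a gap of at least 1500 bases. It was 0.35 with a pseudocount of 10, 0.52 among genes with at least 10 counts in each library, 0.54 over 50 kb from an end, 0.36 in CPM, 0.60 with a gap of at least 2000 bases, 0.20 against gaps of 200 to under 1000 bases, 0.50 among genes of at least 600 bases and 0.32 for members with consecutive flanks in the other assembly. Settings chosen after seeing the data gave 0.31 for divergent genes, 0.52 for tandem genes, 0.16 without unmatched IDs, 0.55 without chromosome 1 and 0.51 over 20 kb from an end. Leaving out 1 replicate gave 0.40 to 0.42.

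The orientation difference (-0.22) reversed to 0.15 in CPM and to 1.24 with a gap of at least 2000 bases, which leaves 8 divergent members. It was -0.38 with at least 10 counts, -0.44 over 50 kb from an end and -0.59 with a gap of at least 1500 bases, and -0.25 to -0.21 with 1 replicate left out.

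The spread difference (-0.13 percentage points of CV) reversed to 0.25 for genes averaging 1 CPM or more, 0.23 for those averaging 50 CPM or more, 1.46 and 2.19 with gaps of at least 1500 and 2000 bases, and, in bins chosen after seeing the data, 3.01 and 0.44 in the second and highest bins of level. It was -0.126 with median-of-ratios scaling, -0.046 with library totals, -0.16 over 50 kb from an end, -0.56 as the square root of edgeR's tagwise dispersion, and -0.42 and -0.64 in the remaining bins. Leaving out 1 replicate gave -0.57 to 0.39. The cause of these changes was not tested.

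The 7 varying members were 1 at a ratio of at least 2, 81 with no minimum ratio, 13 for genes averaging 1 CPM or more (beside 7.09% of all genes and 110 members tested), 4 for 50 CPM or more (2.45% and 75), 4 over 50 kb from an end (3.66% and 86, chosen after seeing the data) and 0 to 5 with 1 replicate left out. Within 20 kb of an end lay 9.92% of members. A gap of at least 1500 or 2000 bases left 44 or 19 members by construction. No paired analysis was possible because there is only 1 group. At this depth, members with few counts cannot be told from 0.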

Other observations

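Long spaces were rarer between convergent genes. Of 94 spaces of 1000 to 8000 bases, 41 lay between divergent, 39 between tandem and 14 between convergent genes, while convergent neighbours made up 1480 of all 5338 neighbouring pairs.

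The 9 genes with an upstream gap over 8000 bases had medians of 78.3, 88.8 and 87.7 TPM in libraries 1, 4 and 5, and 8 of them are divergent. The 9 genes with no upstream neighbour, all within 20 kb of an end, had medians of 0.152, 0.146 and 0.0208 TPM. In fixed windows of 100 kb, 40 of 91 windows held no member. The most members in a window were 7, on chromosome 1 at 300001 to 400000 and on chromosome 7 at 600001 to 700000. The members in these 2 windows had median levels of 86.4 and 88.7 TPM. Members have 80 distinct gaps, and paired members mostly fall in a window together. Whether the counts per window depart from an even scatter was not tested.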
